A study of Mus musculus with 4 samples.

Results

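The genomic regions described here are those that carried a peak of accessible chromatin in both hippocampus libraries and in neither cortex library of a single-nucleus ATAC-seq experiment on the mouse forebrain. They were selected on the measured peaks themselves. After merging peaks of the 4 libraries that shared 1 bp or more, 185260 regions were left, and 7881 of these (4.25%) had a peak of both hippocampus libraries and of no cortex library. These 7881 regions are called hippocampus-only regions below. The name refers to peak calls, so it carries no test of hippocampus against cortex.

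Nuclei came from mice of the genotype Dlx6aCre;Sun1/sfGFP at P30, and nuclei positive for both DAPI and GFP were sorted from each brain region. Dlx6aCre is a Cre recombinase transgene driven by sequences of Dlx6, a homeobox gene of inhibitory neuron precursors, and Sun1/sfGFP places a fluorescent protein in the nuclear envelope of cells in which Cre has acted, so both regions share the same marking and the same sort. Cortex and hippocampus had 2 libraries each. The labels do not say whether these came from separate animals. Unless stated otherwise, the p-values below compare groups of nuclei within each library. They measure how that difference varied across 2 libraries, not across animals.

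Accessible regions away from gene starts often hold enhancers, short stretches of DNA that bind transcription factors and act on genes at a distance, and the nearest gene need not be the one an enhancer acts on. In the hippocampus most inhibitory interneurons arise from the medial ganglionic eminence (MGE), where Lhx6 is the defining transcription factor, or from the caudal ganglionic eminence (CGE), where Adarb2, a protein related to RNA editing enzymes, is a common marker. Gad1 encodes an enzyme that makes GABA and marks inhibitory neurons in general. Olig2 is a transcription factor of the oligodendrocyte lineage, the cells that make myelin.

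Sequences of 7 hippocampus-only regions are shown because they stand for the groups that the results turn on. Each is the central 300 bp of the region, read 5′ to 3′ on the + strand of RefSeq GRCm38.p6 and named by the protein-coding gene whose start is nearest. Capitals mark every match, on either strand, to 6 short motifs: TGANTCA (AP-1), TAATTA (homeodomain), ACAATGG (SOX), CAGCTG and CAGATG (E-boxes) and AGGTCA (a nuclear receptor site). The first 3 regions were more accessible in Olig2-gated than in Gad1-gated nuclei, as described below.
Gjc3, chr5:137966535-137966834: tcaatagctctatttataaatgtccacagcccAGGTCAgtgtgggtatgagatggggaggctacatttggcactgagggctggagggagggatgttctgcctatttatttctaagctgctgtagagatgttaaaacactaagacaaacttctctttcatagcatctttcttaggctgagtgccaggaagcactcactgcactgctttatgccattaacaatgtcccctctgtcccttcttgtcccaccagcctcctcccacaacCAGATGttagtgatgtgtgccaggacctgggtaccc
Rasgef1b, chr5:99394643-99394942: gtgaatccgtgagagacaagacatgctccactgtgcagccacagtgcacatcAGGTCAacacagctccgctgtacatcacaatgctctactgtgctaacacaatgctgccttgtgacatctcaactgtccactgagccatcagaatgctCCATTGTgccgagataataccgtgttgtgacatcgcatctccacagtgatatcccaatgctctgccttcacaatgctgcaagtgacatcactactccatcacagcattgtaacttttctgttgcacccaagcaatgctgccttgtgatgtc
Pou3f1, chr4:124667709-124668008: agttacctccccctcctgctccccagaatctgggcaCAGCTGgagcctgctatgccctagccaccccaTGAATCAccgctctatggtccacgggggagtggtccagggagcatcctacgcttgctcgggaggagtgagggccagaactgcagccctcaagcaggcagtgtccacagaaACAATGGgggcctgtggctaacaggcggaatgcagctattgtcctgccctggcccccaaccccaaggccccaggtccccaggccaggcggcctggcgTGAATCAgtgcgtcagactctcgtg
The regions nearest Cobl and Cnr1 were more accessible in Adarb2-gated nuclei, and the region nearest Fhit was more accessible in Lhx6-gated nuclei.
Cobl, chr11:12987973-12988272: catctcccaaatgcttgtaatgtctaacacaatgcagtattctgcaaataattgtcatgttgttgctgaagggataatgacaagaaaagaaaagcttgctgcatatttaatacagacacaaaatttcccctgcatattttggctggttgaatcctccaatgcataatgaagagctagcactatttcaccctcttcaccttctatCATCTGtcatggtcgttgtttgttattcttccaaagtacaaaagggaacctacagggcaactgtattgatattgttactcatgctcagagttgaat
Cnr1, chr4:33767121-33767420: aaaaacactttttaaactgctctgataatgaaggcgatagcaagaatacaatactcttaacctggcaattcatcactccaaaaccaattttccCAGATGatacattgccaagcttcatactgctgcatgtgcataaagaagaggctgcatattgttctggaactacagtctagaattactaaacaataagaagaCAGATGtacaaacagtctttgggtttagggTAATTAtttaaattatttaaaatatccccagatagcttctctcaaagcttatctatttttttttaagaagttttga
Fhit, chr14:10288092-10288391: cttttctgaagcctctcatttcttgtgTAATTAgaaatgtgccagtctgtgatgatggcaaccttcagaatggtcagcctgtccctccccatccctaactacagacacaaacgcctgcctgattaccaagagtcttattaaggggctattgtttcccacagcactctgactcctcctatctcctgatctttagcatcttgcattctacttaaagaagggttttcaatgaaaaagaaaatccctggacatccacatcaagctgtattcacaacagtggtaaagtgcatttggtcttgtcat
The region in Gabbr2 had the highest level of all, taking the lower of its 2 library values.
Gabbr2, chr4:46864032-46864331: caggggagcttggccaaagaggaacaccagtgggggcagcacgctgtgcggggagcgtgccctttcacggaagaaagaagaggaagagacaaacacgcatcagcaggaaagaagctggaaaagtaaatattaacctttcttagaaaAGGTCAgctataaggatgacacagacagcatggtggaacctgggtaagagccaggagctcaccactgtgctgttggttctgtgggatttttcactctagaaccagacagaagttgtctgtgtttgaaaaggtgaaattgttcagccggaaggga

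Membership moved with the number of peaks a library had. The libraries held 2355 to 5576 nuclei and 61965 to 157220 peaks, with a median of 47236 and 7352 cut sites per nucleus in cortex replicates 1 and 2 and of 12685.5 and 14917 in hippocampus replicates 1 and 2. Pairs of libraries shared 11 to 47 cell barcodes. Cortex replicate 2 had the fewest peaks, and 30380 regions were found in both hippocampus libraries and cortex replicate 1 but not in cortex replicate 2. Regions seen in the 4 libraries numbered 46698, regions seen in hippocampus replicate 1 alone 41108, and regions seen in both cortex libraries and neither hippocampus library 294. Without cortex replicate 1 the same rule chose 38261 regions, without cortex replicate 2 it chose 13993, without hippocampus replicate 1 it chose 8849 and without hippocampus replicate 2 it chose 48989. When each library was cut to its 61965 peaks with the most cut sites, 4761 of 86477 merged regions (5.51%) were hippocampus-only and 3212 (3.71%) were cortex-only. The large gap between 7881 and 294 regions was therefore much smaller at equal peak numbers.

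**Figure D1:**
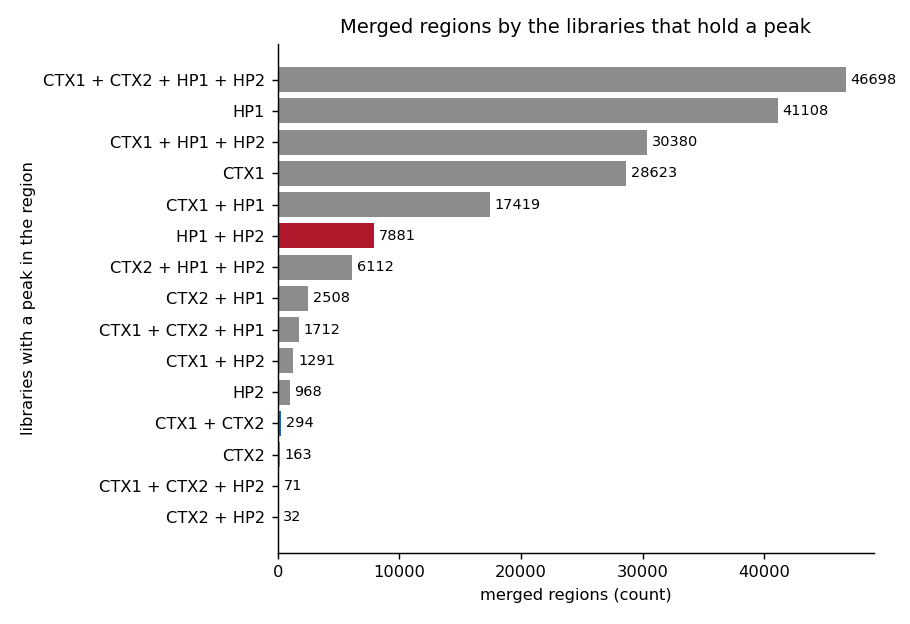
Number of merged regions (horizontal axis) for each combination of the 4 libraries (CTX, cortex; HP, hippocampus) that held a peak there (vertical axis). The bar of hippocampus-only regions (red, 7881) is far longer than that of cortex-only regions (blue, 294) and shorter than those of the 4 libraries together (46698) and of hippocampus replicate 1 alone (41108).

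The width of hippocampus-only regions lay between those of regions seen in fewer and in more libraries. Their median width was 439 bp, with an interquartile range from 348 to 553 bp, and the extremes were 10 and 3326 bp. The median was 255 bp for regions of hippocampus replicate 1 alone, 431 bp for those of hippocampus replicate 1 and cortex replicate 1, 569 bp for regions shared by both hippocampus libraries and cortex replicate 1, and 1133 bp for regions of the 4 libraries. Of the 7881 regions, 7852 (99.6%) were made of 1 peak from each hippocampus library, and 86 (1.09%) were under 100 bp wide. The nearest cortex peak lay at a median of 5.018 kb. The closest lay 16 bp away, just outside the overlap that would have removed the region, and asking for an overlap of 50% of the shorter peak gave 7935 regions instead. No cortex peak lay within 1 kb of 7029 regions (89.2%), and none lay within 10 kb of 2352 (29.8%).

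Gene starts were rare among them. The median distance to the nearest protein-coding gene start was 59.5 kb, and 74 of 7881 regions (0.939%, exact Clopper-Pearson 95% interval 0.738 to 1.18%) came within 1 kb of such a start. Among regions of the 4 libraries the median distance was 24.2 kb and 23.5% came within 1 kb. Regions of both hippocampus libraries and cortex replicate 1 lay between these, at 51.8 kb and 2.71%, and the 294 cortex-only regions were close to the hippocampus-only ones at 54.1 kb and 2.04%. Of hippocampus-only regions 12.7% lay 1 to 10 kb from a start, 30.7% lay 100 to 500 kb away and 6.47% lay beyond 500 kb. By place, 43.6% fell in an intron, 9.21% in an exon and 47.2% outside protein-coding genes. At equal peak numbers the median distance was 66.4 kb and 0.882% came within 1 kb. With the starts of all annotated genes in place of protein-coding ones, the median became 20.9 kb and the share within 1 kb 3.88%.

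**Figure D2:**
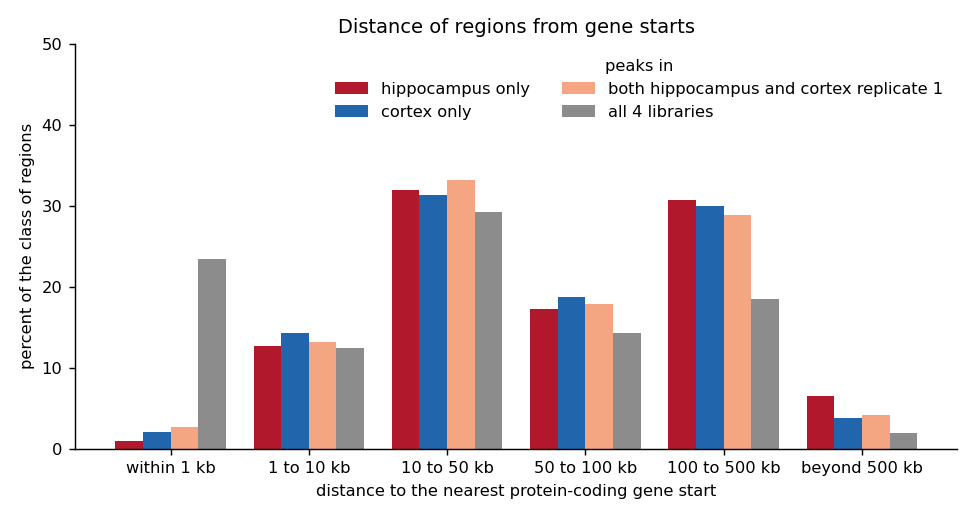
Share of regions (vertical axis, %) by distance from the nearest protein-coding gene start (horizontal axis, bins in kb) for hippocampus-only regions and the classes they are compared with. In the bin nearest the start the hippocampus-only bar is at 0.939% and that of regions found in the 4 libraries at 23.5%, whereas hippocampus-only regions have 30.7% between 100 and 500 kb.

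Levels were low in both hippocampus libraries. In CPM, a region's share of the cut sites in peaks of its library times 1000000, a hippocampus-only region had a median of 3.05 in hippocampus replicate 1, with an interquartile range from 2.13 to 4.26 and a highest value of 25.6. In hippocampus replicate 2 the median was 2.34, the interquartile range ran from 1.02 to 3.55 and the highest value was 19.7. In the same libraries the medians were 9.95 and 10.4 for regions of all 4 libraries, and 3.62 and 3.42 for regions shared with cortex replicate 1. Only 60 of the 7881 regions (0.761%) reached the median cortex peak of each cortex library in both hippocampus libraries, and 3922 (49.8%) reached the 10th percentile of those peaks. Together the regions held 2.69% and 2.01% of all cut sites in peaks in replicates 1 and 2. Across the 7768 regions with cut sites in both libraries, the log2 levels of the replicates had a Pearson r of 0.317 and a Spearman rho of 0.448, given as a description because all points share the same pair of libraries. The remaining 113 regions had no cut site in 1 of the libraries.

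Few nuclei carried any given region. The median region had a cut site in 2.21% of the nuclei of hippocampus replicate 1 and in 2.26% of those of replicate 2, and the highest shares were 13.5% and 12.5%. For regions of the 4 libraries the medians were 6.26% and 7.76%. When every nucleus was thinned to 3000 cut sites, which left out 381 and 67 shallower nuclei, the medians of hippocampus-only regions were 0.828% and 0.642%. A fragment can give 2 cut sites, and a nucleus without a cut site is not shown to have the region closed.

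The regions with the highest level in both libraries lay within introns. The region in Gabbr2 (chr4:46862975-46865388), which encodes a subunit of the metabotropic GABA receptor, had 25.6 and 16.2 CPM in hippocampus replicates 1 and 2, and 13.5% and 10.7% of nuclei carried it. Its nearest cortex peak was 620 bp away, so it bordered on chromatin that was open in cortex too. The region in Rnf144a (chr12:26302757-26304846), a gene for a ubiquitin ligase, had 21.2 and 15.8 CPM. The region in Ptprt (chr2:162207792-162208969), a receptor tyrosine phosphatase, had 19.1 and 14.7 CPM, and the one in Prpf18 (chr2:4640311-4641537), a splicing factor, had 16.4 and 15.2 CPM. All 4 were well above the median hippocampus-only region in both libraries.

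The widest regions behaved otherwise, and rested on replicate 1. The region nearest Rtl1, an imprinted gene derived from a retrotransposon, was 3326 bp wide (chr12:109714931-109718256) and had 16.9 CPM in replicate 1 and 1.00 in replicate 2. Peaks covered 3326 bp of it in replicate 1 and 141 bp in replicate 2. The region nearest Slc41a3, in a coding exon of Iqsec1 (chr6:90676941-90679810), had 14.0 and 0.480 CPM, with 2870 and 76 bp covered. The region in a coding exon of Pdia2 (chr17:26196082-26198782), a protein disulfide isomerase, had 11.8 and 1.15 CPM. The region nearest Asb8, in a coding exon of Pfkm (chr15:98130272-98132944), had 13.3 and 6.22 CPM, the smallest difference of the 4. Among the 338 regions over 1000 bp wide the median level was 6.98 CPM in replicate 1 and 2.59 in replicate 2, and 121 (35.8%) were more than 4 times higher in replicate 1, with 0 more than 4 times higher in replicate 2. Exons held 27.8% of these wide regions. Since a cut site was counted only inside a library's own peaks, peak length and level moved together here, and the part of peak length in these differences was not tested.

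Some short sequence motifs differed in share between hippocampus-only regions and the others. The SOX motif ACAATGG, the core that SOX factors bind, was present in 11.9% of the 300 bp windows of hippocampus-only regions (939 windows), against 3.96% of all merged regions, 5.12% of regions shared with cortex replicate 1 and 3.15% of regions of the 4 libraries. The homeodomain motif TAATTA, which LHX and DLX factors among many others can bind, was present in 13.7% (1077 windows), against 7.30%, 10.3% and 6.32% in the same order. The AP-1 motif TGANTCA went the other way, at 9.16% in hippocampus-only regions, 12.7% in all merged regions and 23.8% in the 294 cortex-only regions. It stood at 12.1% in regions shared with cortex replicate 1, 11.5% in regions of the 4 libraries and 8.46% in regions of hippocampus replicate 1 alone. The E-boxes CAGCTG and CAGATG stood at 33.3% and 32.7%, against 25.5% and 27.8% in all merged regions. Regions shared with cortex replicate 1 were close, at 32.5% and 31.9%, and cortex-only regions were higher, at 38.8% and 37.1%. AGGTCA stood at 12.1% against 13.5% in all merged regions.

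Base composition moved with these shares. Median GC content was 45.7% in hippocampus-only windows and 47.7% in all merged regions. Within windows of 40 to 50% GC, SOX matches were found in 12.3% of hippocampus-only regions, 5.31% of regions shared with cortex replicate 1 and 4.25% of all merged regions, and homeodomain matches in 13.7%, 11.1% and 8.48%. In windows with at most 10% of bases masked as repeats the shares were 12.7% against 4.30% for SOX and 15.2% against 7.91% for the homeodomain. A match describes letters in the window and is not a binding site, and no test was run on these shares.

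**Figure D3:**
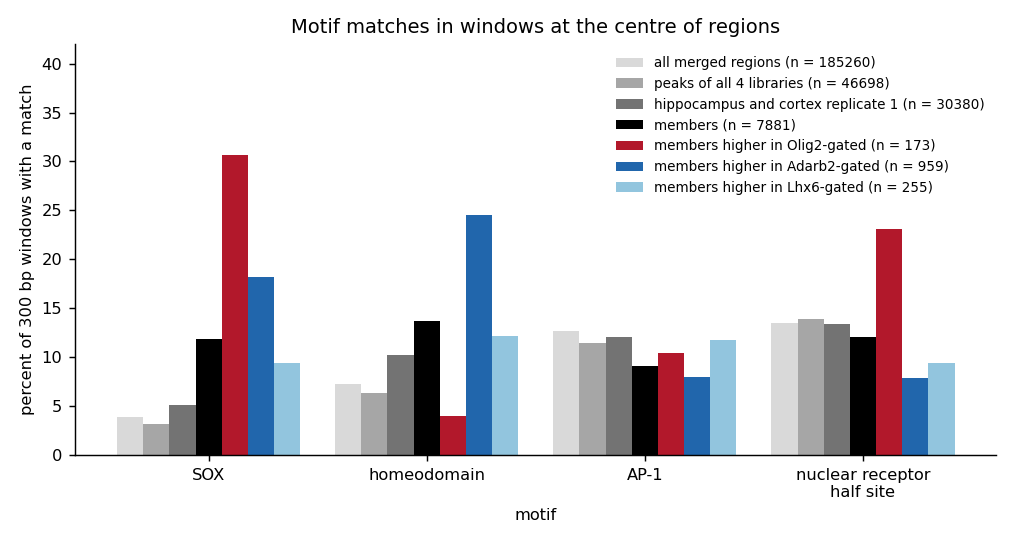
Share of 300 bp windows (vertical axis, %) with a match to the SOX, homeodomain, AP-1 and nuclear receptor motifs in 7 classes of regions. SOX matches rise from 3.96% of all merged regions to 11.9% of hippocampus-only regions and 30.6% of those higher in Olig2-gated nuclei, and homeodomain matches reach 24.5% in those higher in Adarb2-gated nuclei.

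To find which nuclei carried the regions, hippocampal nuclei were gated on cut sites in peaks over marker genes, with hippocampus-only regions left out of the gate. Olig2-gated nuclei, with at least 2 cut sites over Olig2 and a Gad1 rate under 0.5 of the library mean, numbered 34 of 5576 (0.610%, exact Clopper-Pearson 95% interval 0.423 to 0.851%) in replicate 1 and 60 of 3184 (1.88%, interval 1.44 to 2.42%) in replicate 2. Gad1-gated nuclei, with at least 2 cut sites over Gad1 and none over Olig2, numbered 3680 and 2235. Intervals cover counting error only.

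The gates were checked against marker lists. The summed level over 27 oligodendrocyte-lineage genes was 2657 and 3233 CPM in the Olig2-gated nuclei of replicates 1 and 2, against 828 and 771 CPM in Gad1-gated nuclei. In the Olig2-gated nuclei 21 and 25 of the 27 genes stood above the library mean, and 4 and 1 were at 0. Aspa, among these in both libraries, was at 0 in Gad1-gated nuclei too. Over 8 pan-GABA genes the order was reversed, with 458 and 440 CPM in Olig2-gated and 1088 and 1282 CPM in Gad1-gated nuclei. Excitatory neuron genes summed to 1071 and 780 CPM against 964 and 864, astrocyte genes to 281 and 213 against 373 and 319, and microglial and endothelial genes to 412 and 408 against 371 and 311. The Olig2 gate thus held accessibility of the oligodendrocyte lineage, although the sort was for a marker of inhibitory neurons.

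Summed together, hippocampus-only regions took a larger share of the cut sites of Olig2-gated nuclei than of Gad1-gated nuclei. The median log2 fold change of single regions had the opposite sign, on few cut sites per region in the Olig2 gate, as given below. In replicate 1 they held 4.03% of the cut sites in Olig2-gated and 2.62% in Gad1-gated nuclei, and in replicate 2 they held 3.62% and 1.90%. The log2 ratio was 0.62 in replicate 1 and 0.93 in replicate 2, higher in 2 of 2 libraries (no test, n = 2). Median shares per nucleus were 4.67% against 2.60% and 3.89% against 1.84%. For comparison, regions of the 4 libraries held 67.3% and 81.0% of the cut sites of Olig2-gated nuclei, against 68.5% and 83.8% in Gad1-gated nuclei. Regions of both hippocampus libraries and cortex replicate 1 held 14.3% and 13.1% against 12.8% and 11.8%, so they too took a larger share in Olig2-gated nuclei.

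Depth differed between the gates. The median Olig2-gated nucleus had 4365 and 9843.5 cut sites in replicates 1 and 2, and the median Gad1-gated nucleus had 14653 and 16543. In Gad1-gated nuclei within the depth range of the middle Olig2-gated nuclei (103 and 359 nuclei) the share was 2.96% and 1.90%, against 4.79% and 3.74% in the 16 and 30 Olig2-gated nuclei of that range. After thinning to 3000 cut sites, which left 14 and 9 Olig2-gated nuclei, the values were 4.67% and 3.50% against 2.70% and 1.92%. The share was thus higher in Olig2-gated nuclei at like depth too, on few nuclei. Its ratio to that of Gad1-gated nuclei was 1.53 and 1.91 before thinning and 1.73 and 1.82 after. The part of depth was not tested. Because Olig2-gated nuclei were few, they held 0.362% and 2.37% of the cut sites in hippocampus-only regions, while Gad1-gated nuclei held 76.4% and 73.6%. Of all cut sites in peaks, Olig2-gated nuclei held 0.241% and 1.31% and Gad1-gated nuclei 78.2% and 78.0%. The 1862 and 889 nuclei in neither gate held 23.2% and 24.0% of the cut sites in hippocampus-only regions. They held 21.5% and 20.7% of all cut sites in peaks. Hippocampus-only regions took 2.90% and 2.32% of their own cut sites, above the Gad1-gated and below the Olig2-gated share. A wider gate, set by the summed marker lists, took 563 and 320 oligodendrocyte-lineage nuclei and 3987 and 2497 pan-GABA nuclei, with shares of 4.42% and 3.70% against 2.60% and 1.88%.

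**Figure D4:**
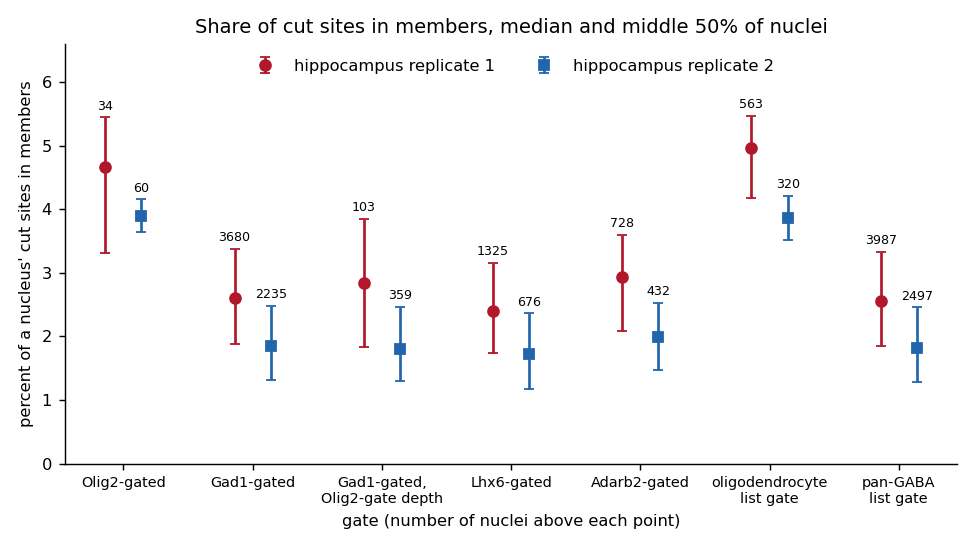
Share of each nucleus's cut sites that fell in hippocampus-only regions (members, vertical axis, %) by gate (horizontal axis) and hippocampus library, drawn as the median (point) with the interquartile range (line) and the number of nuclei above. The Olig2 gate lies at 4.67% and 3.89%, near the wider oligodendrocyte list gate at 4.97% and 3.86%, and the Gad1 gate lies at 2.60% and 1.84%.

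Cut sites were then summed per gate and library, and Olig2-gated and Gad1-gated sums were compared with edgeR's quasi-likelihood test and the library as a block. In such sums, fewer nuclei of a type and less accessibility per nucleus cannot be told apart within a gate. Of the 7881 hippocampus-only regions, 9 overlapped a gate gene and were left out, and 6892 passed the filter on low counts. Of these, 173 (2.51%) were higher in Olig2-gated nuclei at a Benjamini-Hochberg adjusted p under 0.05, where 0.861% of all regions tested were. Without the filter it was 177 of 7872, where 0.86% of all regions were called. In the opposite direction edgeR called 0 (37 had an unadjusted p below 0.05), while 0.151% of all regions tested were called. The median log2 fold change, Olig2-gated over Gad1-gated, was -1.75 over hippocampus-only regions tested and -1.20 over other regions tested. The summed share was thus higher in Olig2-gated nuclei although this median was negative. Over all 7881 hippocampus-only regions, Olig2-gated nuclei had only 7030 and 22808 cut sites in replicates 1 and 2. Gad1-gated nuclei had 1485701 and 708345. Without the filter the median was -6.79 over hippocampus-only regions and -1.27 over other regions. The median therefore moved with the filter on low counts, and the part of sparse counts in it was not tested. The number of regions called rested on few nuclei. A gate minimum of 4 cut sites left only 1 and 10 Olig2-gated nuclei in replicates 1 and 2. With it 0 passed by edgeR, of hippocampus-only and of all regions alike, and 2 hippocampus-only regions had an unadjusted p below 0.05. At the minimum of 2, DESeq2 found 672 higher in Olig2-gated and 5 in Gad1-gated nuclei, where it called 2.9% and 2.16% of all regions. Without the block edgeR found 804 and 38, where it called 2.91% and 3.55% of all regions.

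The 4 regions with the smallest p included the surroundings of known glial genes. The region nearest Gjc3, a connexin of myelinating glia (chr5:137966417-137966953, 3.32 kb from the start and 80.2 kb from any cortex peak), had 139 and 73.5 CPM in Olig2-gated nuclei against 1.95 and 1.21 in Gad1-gated nuclei of replicates 1 and 2. Its log2 fold change was 5.62 ± 0.80 (SE, n = 2 libraries), with an adjusted p of 1.66e-08 by edgeR. The Olig2-gated levels came from 22 and 46 cut sites. Of Olig2-gated nuclei 29.4% and 35.0% carried it, against 1.11% and 0.984% of Gad1-gated nuclei. Most nuclei of both gates had no cut site in it.

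The region at the start of Plxnb3, a semaphorin receptor (chrX:73756316-73757134, in an untranslated exon), had 120 and 89.5 CPM in Olig2-gated nuclei and 2.29 and 2.58 in Gad1-gated nuclei. Its log2 fold change was 5.00 ± 0.76 (edgeR adjusted p = 1.59e-07). The intronic region in Rasgef1b, an exchange factor for small GTPases (chr5:99394539-99395047), had 146 and 60.7 CPM against 1.95 and 1.85, with a log2 fold change of 5.20 ± 0.81 (edgeR adjusted p = 2.85e-07). The region nearest Pou3f1, a POU factor with a role in Schwann cell myelination (chr4:124667533-124668185), had 63.3 and 109 CPM against 1.79 and 2.63. Its log2 fold change was 4.89 ± 0.80 (edgeR adjusted p = 1.47e-06), and 14.7% and 40.0% of Olig2-gated nuclei carried it. In each of these regions both Olig2-gated values lay far above both Gad1-gated ones, and sums of 10 to 68 cut sites lay behind the Olig2-gated levels.

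Regions near oligodendrocyte-lineage genes were among those that passed. Of the 28 genes listed for that lineage, 17 were nearest to a hippocampus-only region, and these genes had 38 such regions among the 478 merged regions assigned to the list (7.95%, where 4.25% of all merged regions were hippocampus-only). Of 37 tested, 7 were higher in Olig2-gated nuclei, and of all 256 tested regions of these genes 29 were. DESeq2 called 16 of the 37. The region at the start of Mag, a myelin-associated glycoprotein (chr7:30914774-30915129), had 69.6 and 49.5 CPM in Olig2-gated nuclei and 0.558 and 0.940 in Gad1-gated nuclei, a log2 fold change of 5.90 ± 1.04 (edgeR adjusted p = 1.48e-05). The region at the start of Mog, another protein of the myelin sheath (chr17:37023125-37023631), had 38.0 and 73.5 CPM against 1.60 and 2.28, with a log2 fold change of 4.46 ± 0.94 (edgeR adjusted p = 0.000711).

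A region 34.3 kb from the start of Olig1, a transcription factor of the lineage (chr16:91304090-91304500), had 82.2 and 41.5 CPM in Olig2-gated nuclei and 0.957 and 1.29 in Gad1-gated nuclei, a log2 fold change of 5.28 ± 1.03 (edgeR adjusted p = 0.000134). A region nearest Aspa, the enzyme that breaks down N-acetylaspartate in oligodendrocytes (chr11:73303241-73303458), had 19.0 and 46.3 CPM against 0.578 and 0.618, a log2 fold change of 5.38 ± 1.43 (edgeR adjusted p = 0.0207). The marker value of Aspa itself, taken without hippocampus-only regions, was 0 in every gate of both libraries, so it does not separate the gates. Of the 8 hippocampus-only regions near pan-GABA genes 7 were tested, and 0 were called in either direction by edgeR, by DESeq2 or at an unadjusted p below 0.05.

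On the Gad1 side no region passed, and the smallest p belonged to regions without a cut site in the Olig2 gate. In simulated data this contrast recovered 0 of 100 regions changed 4-fold. The lack of calls here and near pan-GABA genes therefore does not show equal accessibility. The region nearest Hsfy2, a gene of the heat shock factor family (chr1:56684315-56685008), had 0 and 0 cut sites in Olig2-gated nuclei and 816 and 559 in Gad1-gated nuclei (edgeR adjusted p = 0.359). The region in introns of St6galnac5, a sialyltransferase, and Pigk (chr3:152869564-152870797), had 0 and 0 against 939 and 477 (edgeR adjusted p = 0.371).

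Position and motifs of the 173 regions higher in Olig2-gated nuclei are given as a description. They lay at a median of 26.1 kb from a gene start, 8 (4.62%) came within 1 kb, and they were spread over 167 nearest genes. The SOX motif was present in 30.6% of their windows and AGGTCA in 23.1%, against 11.9% and 12.1% in hippocampus-only regions as a whole, while TAATTA was present in 4.05% against 13.7%. Their median GC content was 51.0%. Of these regions 92.5% had the higher CPM in hippocampus replicate 2, the library with more Olig2-gated nuclei, against 32.6% of hippocampus-only regions as a whole, and the part of the number of Olig2-gated nuclei in this was not tested. Under the wider gate 169 of the 173 were called again, in the same libraries and partly the same nuclei.

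Under that wider gate the picture over the set was more even. Of 7503 hippocampus-only regions tested, 1423 (19.0%) were higher in oligodendrocyte-lineage nuclei, where 15.9% of all regions tested were, and 882 (11.8%) were higher in pan-GABA nuclei, where 16.5% were. The share called on the oligodendrocyte side was thus not far above that of all regions. The regions called on that side lay at a median of 37.1 kb from a gene start and those on the pan-GABA side at 114 kb. The median log2 fold change, oligodendrocyte-lineage over pan-GABA nuclei, was -0.563 over hippocampus-only regions tested and -0.314 over other regions tested.

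Among inhibitory nuclei, Lhx6-gated and Adarb2-gated nuclei were compared in the same way. Both lay inside the Gad1 gate, the first with cut sites over Lhx6 and a low Adarb2 rate, the second with none over Lhx6 and an Adarb2 rate above the library mean. They numbered 1325 and 728 in replicate 1 and 676 and 432 in replicate 2. Hippocampus-only regions held 2.46% and 1.79% of the cut sites of Lhx6-gated nuclei and 2.94% and 2.04% of those of Adarb2-gated nuclei, a log2 ratio of -0.25 and -0.19. This order turned when nuclei were thinned to 3000 cut sites, where the log2 ratio was 0.14 in both libraries. Thinning also changed which nuclei passed the gates, leaving 81 and 21 Lhx6-gated and 225 and 86 Adarb2-gated nuclei. Median depth was 16446 and 17873.5 cut sites in Lhx6-gated nuclei and 13014.5 and 16256 in Adarb2-gated nuclei, and its part apart from that of the gates was not tested.

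Region by region, 7372 hippocampus-only regions passed the filter. Of these, 959 (13.0%) were higher in Adarb2-gated nuclei, where 7.08% of all regions tested were, and 255 (3.46%) were higher in Lhx6-gated nuclei, where 6.94% were. By DESeq2 the counts were 80 (1.09%) and 11 (0.149%), where 0.961% and 0.615% of all regions were called. The share on the Adarb2 side was thus near that of all regions by DESeq2. Without the library block edgeR called 0 in both directions, with 441 and 108 at an unadjusted p below 0.05, and it called 0 among all regions too. In the cortex libraries the 294 cortex-only regions gave the larger count on the Lhx6 side, with 43 of 249 tested (17.3%) higher in Lhx6-gated and 23 (9.24%) higher in Adarb2-gated nuclei, where 5.63% and 6.36% of all regions were. The difference between the brain regions was not tested.

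**Figure D5:**
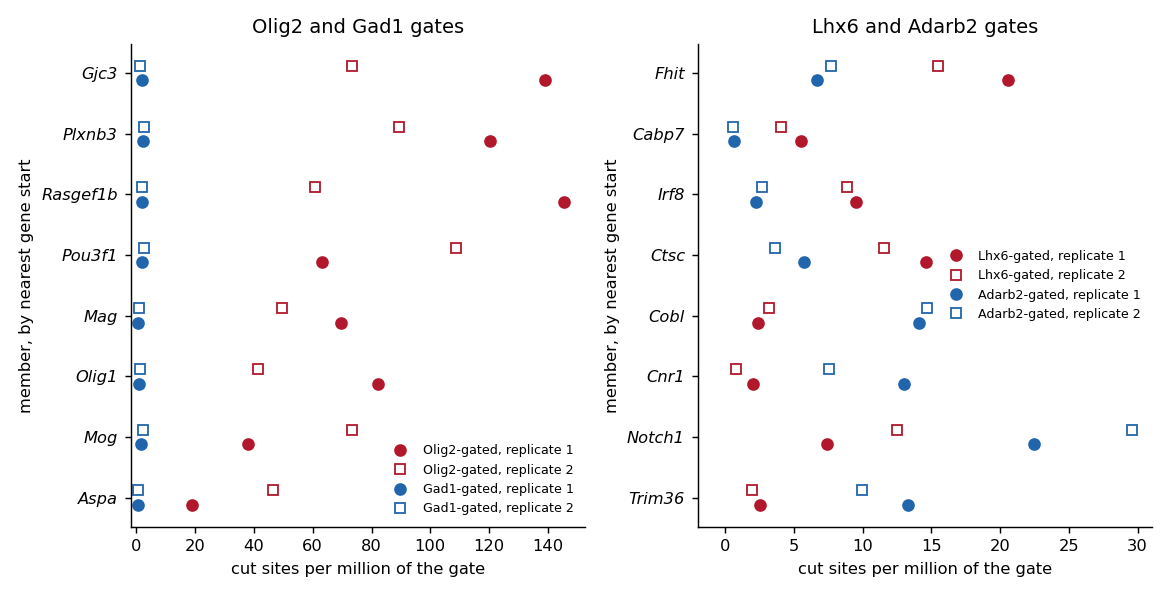
Level (horizontal axis, CPM) of named hippocampus-only regions by gate in hippocampus replicate 1 (filled circles) and replicate 2 (open squares), with Olig2-gated (red) against Gad1-gated (blue) nuclei on the left and Lhx6-gated (red) against Adarb2-gated (blue) nuclei on the right. The Gjc3 region sits at 139 and 73.5 CPM in Olig2-gated nuclei and at 1.95 and 1.21 in Gad1-gated nuclei, and the Cobl region at 14.1 and 14.7 CPM in Adarb2-gated nuclei and 2.36 and 3.19 in Lhx6-gated nuclei.

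The regions most clearly higher in Adarb2-gated nuclei were mostly far from any gene start. The region nearest Cobl, which encodes an actin nucleator (chr11:12987848-12988398, 523 kb from the start), had 2.36 and 3.19 CPM in Lhx6-gated nuclei and 14.1 and 14.7 CPM in Adarb2-gated nuclei of replicates 1 and 2. The log2 fold change, Lhx6 over Adarb2, was -2.41 ± 0.26 (edgeR adjusted p = 1.28e-16), and replicates differed far less than the gates.

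The region nearest Cnr1, the cannabinoid receptor of cholecystokinin interneurons (chr4:33767021-33767521, 157 kb from the start), had 2.02 and 0.818 CPM against 12.99 and 7.55, a log2 fold change of -2.86 ± 0.32 (edgeR adjusted p = 2.38e-15). The region in a coding exon of Notch1, a receptor of cell fate decisions (chr2:26499927-26501913), had 7.39 and 12.5 CPM against 22.5 and 29.6, a log2 fold change of -1.43 ± 0.17 (edgeR adjusted p = 4.30e-14). The region nearest Trim36, a ubiquitin ligase, had 2.51 and 1.96 CPM against 13.3 and 9.92, with a log2 fold change of -2.38 ± 0.29 (edgeR adjusted p = 1.70e-13). In each of these regions both Adarb2-gated values lay above both Lhx6-gated ones.

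In the opposite direction, an intronic region of Fhit, a nucleotide hydrolase gene at a fragile site (chr14:10287821-10288663), had 20.6 and 15.5 CPM in Lhx6-gated nuclei and 6.67 and 7.69 in Adarb2-gated nuclei, a log2 fold change of 1.33 ± 0.21 (edgeR adjusted p = 2.63e-08). A region in a coding exon of Nf2 whose nearest start is that of Cabp7, a calcium-binding protein (chr11:4789635-4790049), had 5.51 and 4.09 CPM against 0.678 and 0.559, a log2 fold change of 2.93 ± 0.47 (edgeR adjusted p = 8.09e-08). The region nearest Irf8, a transcription factor of myeloid cells (chr8:120872506-120873037), had 9.50 and 8.83 CPM against 2.26 and 2.66, with a log2 fold change of 1.90 ± 0.31 (edgeR adjusted p = 9.60e-08). The region nearest Ctsc, the protease cathepsin C (chr7:88347329-88348024), had 14.6 and 11.5 CPM against 5.76 and 3.63, a log2 fold change of 1.47 ± 0.25 (edgeR adjusted p = 2.68e-07). In each of these regions both Lhx6-gated values lay above both Adarb2-gated ones.

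The region in Ptprt, among the highest in level, was higher in Lhx6-gated nuclei as well, with 26.6 and 20.9 CPM against 13.2 and 12.02 and a log2 fold change of 0.90 ± 0.17 (edgeR adjusted p = 3.94e-06). The regions in Gabbr2, Rnf144a and Prpf18 did not pass, with log2 fold changes of 0.29 ± 0.15, 0.19 ± 0.15 and 0.08 ± 0.17.

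Regions near CGE genes were called on the Adarb2 side. The 15 CGE genes had 25 hippocampus-only regions among 477 merged regions (5.24%, against 4.25% of all), and 6 of 17 tested were higher in Adarb2-gated nuclei, as were 57 of all 208 tested regions of these genes. DESeq2 called 2 of the 17. The intronic region of Npas1, a transcription factor of CGE interneurons (chr7:16468089-16468593), had 1.18 and 2.29 CPM in Lhx6-gated and 8.70 and 11.3 CPM in Adarb2-gated nuclei, a log2 fold change of -2.59 ± 0.32 (edgeR adjusted p = 2.63e-13). A region 529 kb from the start of Nr2f2, a nuclear receptor of the CGE (chr7:69837358-69837590), had 0.886 and 0.736 CPM against 3.50 and 1.96, a log2 fold change of -1.76 ± 0.49 (edgeR adjusted p = 0.00507). A region 115 kb from the start of Adarb2 itself (chr13:8087344-8087859), outside the gated window, had 3.64 and 2.70 CPM against 10.1 and 3.49, a log2 fold change of -1.05 ± 0.31 (edgeR adjusted p = 0.00884). Here the gates overlapped across libraries, although Adarb2-gated nuclei were higher within each library.

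The 13 MGE genes had 11 hippocampus-only regions among 480 merged regions (2.29%, where 4.25% of all merged regions were hippocampus-only), of which 0 of 11 tested were higher in Lhx6-gated nuclei by edgeR, where 52 of all 212 tested regions of these genes were. By DESeq2 0 were, and 2 had an unadjusted p below 0.05 on the Lhx6 side. The 2 that passed by edgeR were higher in Adarb2-gated nuclei, and DESeq2 called 0 of them. A region nearest Sox6, an SOX factor of MGE interneurons (chr7:115410967-115411173, 628 kb from the start), had 1.48 and 0.818 CPM in Lhx6-gated and 4.86 and 2.80 CPM in Adarb2-gated nuclei (log2 fold change -1.74 ± 0.43, edgeR adjusted p = 0.00113). A region nearest Elfn1, a postsynaptic adhesion protein of somatostatin interneurons (chr5:139893944-139894348), had 1.62 and 1.80 CPM against 4.86 and 4.61 (log2 fold change -1.48 ± 0.38, edgeR adjusted p = 0.00177).

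The other lists gave calls on the Adarb2 side too. These were 2 of 12 tested for astrocyte genes (Sox9 and Aldh1l1), 4 of 14 for striatal projection neuron genes (Foxp1, Meis2 and Drd1), 2 of 6 for Cajal-Retzius genes (Reln and Lhx1) and 2 of 31 for oligodendrocyte-lineage genes. Among all tested regions of the same genes the counts were 12 of 115, 16 of 118, 10 of 48 and 13 of 251. DESeq2 called 0 in each of these lists on that side. On the Lhx6 side edgeR and DESeq2 called 0, and 1 region near a striatal gene and 1 near an oligodendrocyte-lineage gene had an unadjusted p below 0.05. Of 7 regions tested near pan-GABA genes and 4 near microglial and endothelial genes, 0 passed in this contrast by either tool, with 1 near a pan-GABA gene at an unadjusted p below 0.05 on the Adarb2 side. The region with the smallest edgeR p among them, 54.3 kb from the start of Foxp1, a forkhead transcription factor, and in an intron of Gm20696 (chr6:99577060-99577815), had 2.95 and 2.94 CPM in Lhx6-gated and 11.9 and 5.03 CPM in Adarb2-gated nuclei (log2 fold change -1.50 ± 0.30, edgeR adjusted p = 2.95e-05). The share called on the Adarb2 side was 13.0% over the hippocampus-only regions tested and 7.08% over all regions tested.

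Motif shares stood apart between both sides. TAATTA was present in 24.5% of the windows of the 959 regions higher in Adarb2-gated nuclei and in 12.2% of the 255 higher in Lhx6-gated nuclei, and ACAATGG in 18.2% and 9.41%. Median GC content was 43.7% and 42.3%. The Adarb2 side lay at a median of 81.7 kb from a gene start, with 7 (0.730%) within 1 kb, and the Lhx6 side at 110 kb, with 0 of 255 within 1 kb.

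The hippocampus-only regions were spread over 4698 nearest genes, 21.4% of the 21938 protein-coding genes. Of these genes 3030 had 1 such region, 1481 had 2 to 4, 170 had 5 to 9 and 17 had 10 or more. Tenm3, a teneurin that guides synaptic wiring, had the most, with 17 of its 134 merged regions (12.7%), of which 2 lay in the gene and the others up to 1984 kb from its start. Of the Tenm3 regions 1 was higher in Lhx6-gated and 1 in Adarb2-gated nuclei. Rnf144a followed with 14 of 70, and 3 of these were higher in Adarb2-gated and 1 in Olig2-gated nuclei.

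St6galnac5 had 14 of 98 (14.3%), with 10 in the gene, and Rapgef5, an exchange factor for Rap GTPases, had 14 of 107 (13.1%). In each of these genes 1 region was higher in Adarb2-gated nuclei, and 1 of Rapgef5 was higher in Olig2-gated nuclei. Gria1, an AMPA receptor subunit, had 13 of 126 (10.3%), with 9 in the gene and 3 higher in Lhx6-gated nuclei. Unc5d, a netrin receptor family gene, had 13 of 106 (12.3%), with 9 in the gene, and 3 were higher in Adarb2-gated and 1 in Lhx6-gated nuclei. Over all regions tested, 7.08% were higher in Adarb2-gated, 6.94% in Lhx6-gated and 0.861% in Olig2-gated nuclei. These genes are named for their number of regions, a count that grows with the length of the gene and of the intervals around it.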

How the data were processed

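Single-nucleus ATAC-seq libraries were made from sorted nuclei, 2 of cortex and 2 of hippocampus. Per the submitters' processing notes, Cell Ranger ATAC 1.2.0 and the builds GRCm38 and mm10 were used. The deposited matrices hold raw counts of cut sites per peak and barcode, with peaks called by the authors in each library separately. The deposited motif matrices were not used, and no doublet caller was run.

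Peaks overlapping by 1 bp were merged. Nearest starts came from 21938 protein-coding genes (GENCODE M21). CPM is the share of a library's cut sites in peaks times 1000000. For a region by gate, it is the share of the gate's cut sites in regions with a peak of both hippocampus libraries, gate genes left out. For marker lists by gate, it is the share of all cut sites in peaks of the gate's nuclei. Marker counts covered the gene and 2 kb upstream. Lhx6-gated nuclei were Gad1-gated with at least 2 cut sites over Lhx6 and an Adarb2 rate under 1 time the library mean, and Adarb2-gated nuclei had none over Lhx6 and a rate above that mean. Sums per gate and library were compared with edgeR 4.0.16 (R 4.3.3; TMM, filterByExpr, two-sided quasi-likelihood F test with robust dispersion, Benjamini-Hochberg over all regions with a peak of both libraries). The library was the block, since both gates of a pair come from the same nuclei suspension. With 2 libraries, the spread of a region was estimated with information shared over all regions tested. DESeq2 1.42.0 was the alternative. SE is the absolute log2 fold change over the square root of F. On simulated counts, the test of Olig2 and Gad1 gates in hippocampus recovered 0 of 100 regions changed 4-fold. The list gates recovered 58 of 100 and the Lhx6 and Adarb2 gates 94 of 100. At 2-fold the counts were 0, 3 and 60. Intervals use scipy 1.17.1, and sequences were read with pysam 0.24.0.

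Named regions were the 4 with the highest lower CPM, the 4 widest, 4 per direction of each contrast by smallest p (2 where none passed), up to 4 per marker list, and the 6 genes with the most regions. Members and lists were chosen with earlier results of these data known. The list-based gates and the depth range were added after seeing the data. Results for 1 marker list in the contrast of inhibitory gates are not reported here.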

Additional observations from a re-analysis of the deposited data

How the results depend on the processing

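The number of hippocampus-only regions, 7881, became 4761 at equal peak numbers, 60 when both values had to reach the median cortex peak, and 8849 to 48989 when 1 library was left out. Regions higher in Olig2-gated nuclei, 173, became 484 with a gate minimum of 1 cut site (2.09% of all regions were called), 0 with a minimum of 4, 672 by DESeq2, 1423 with gates from marker lists and 42 of 168 tested after thinning to 3000 cut sites. The regions that passed the filter after thinning had a median log2 fold change of 2.38, so that filter kept regions high in the Olig2 gate and the share called among them is no result. Regions higher in Gad1-gated nuclei, 0, became 5 by DESeq2 and 882 with gates from marker lists. Regions higher in Lhx6-gated nuclei, 255, became 115 with a minimum of 4 and 11 by DESeq2, and those higher in Adarb2-gated nuclei, 959, became 401 and 80 (2.91% and 3.47% of all regions were called at a minimum of 4). After thinning no hippocampus-only region had enough cut sites for this test. In cortex the 43 and 23 cortex-only regions became 0 and 0 with a minimum of 4, where 0.0955% and 0.596% of all regions were called. The 43 became 25 by DESeq2 (3.76% of all). The causes of these changes were not tested.

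Without the library as a replicate block the Olig2 and Gad1 counts were 804 and 38, and the Lhx6 and Adarb2 counts were 0 and 0 in hippocampus and 0 and 0 in cortex. For Lhx6 and Adarb2, 0 of all regions were called without the block in either brain region. With 1 library left out the blocked fits have no residual degrees of freedom, so only the ratios were recomputed.

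The mean log2 ratio of the share of cut sites, Olig2-gated over Gad1-gated, was 0.78 (0.62 to 0.93 with 1 library left out). It was 1.08 with a gate minimum of 4, which left only 1 and 10 Olig2-gated nuclei in replicates 1 and 2. For Lhx6-gated over Adarb2-gated it was -0.22 (-0.25 to -0.19) and turned to 0.14 after thinning, which also left fewer gated nuclei. The mean share of nuclei with a cut site in a hippocampus-only region, 2.23%, fell to 0.735% after thinning, which removes cut sites by construction. Olig2-gated nuclei held a mean of 1.37% of the cut sites in these regions (0.362 to 2.37%), and 8.62% with gates from marker lists. The list-gated nuclei held 3.46% and 6.26% of all cut sites in peaks in hippocampus replicates 1 and 2. The share of regions within 1 kb of a gene start, 0.939%, was 3.88% with all annotated genes. With the Olig2 gate the contrast could not be fitted in cortex, where replicates 1 and 2 had 36 and 0 Olig2-gated nuclei. Cortex replicate 2 had 0 also at a minimum of 1 cut site. The list gates took 67 and 256 oligodendrocyte-lineage nuclei in cortex. With them edgeR called 0 of 265 cortex-only regions in either direction, where 0.287% of all regions tested were higher in oligodendrocyte-lineage nuclei. In simulated data that contrast recovered 0 of 100 regions changed 4-fold. The Olig2 gate rests on 34 and 60 nuclei.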
